A study of Bos taurus with 6 samples.

Results

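The genes of the proteasome were examined in bovine blastocysts grown from oocytes that had been matured with or without melatonin (MT). Members were all rows of the deposited table whose symbol starts with PSM, a letter from A to G and a digit, which gave 48 of 36075 genes, each under a single identifier. They comprised 8 genes for α subunits and 6 for constitutive β subunits of the 20S core, 4 for the β subunits of the immunoproteasome and thymoproteasome, 6 for the ATPases and 10 for the other subunits of the 19S cap, 4 for activators, 1 for an inhibitor and 7 for assembly chaperones. The other 2 were taken by their symbols alone: PSMC3IP, which acts in meiotic recombination, and PSME3IP1, which binds PSME3. PSMB6, the caspase-like catalytic subunit, and PSMD13, a subunit of the cap, were not analysed here.

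The proteasome is the main protease for proteins marked with ubiquitin in the cytosol and nucleus. Its 20S core is a stack of 4 rings, the outer ones built from α subunits, which gate the entry, and the inner ones from β subunits, of which PSMB5, PSMB6 and PSMB7 carry the catalytic sites. The 19S cap binds the ubiquitin chain, removes it and unfolds the substrate with a ring of ATPases, whereas the activators open the core without ubiquitin. Early embryos rely on the proteasome for the removal of maternal proteins and for each cell division.

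The 2 groups had 3 libraries each. In both, oocytes from slaughterhouse ovaries were matured in vitro for 22 h, fertilized with thawed semen and cultured to blastocysts in the same media. The described difference of the MT-treated group was 1e-07 mol/L MT in the maturation medium. Any other difference between the groups, such as in library preparation or depth, cannot be told apart from MT here and was not tested. Each library was made from a pool of 3 blastocysts, and a group's libraries came from independent in vitro production runs, in each of which the treatments were run side by side. MT concentration, pool size and runs are known from the published methods, not from the sample labels, which give a group and a replicate number. The labels name a TruSeq kit and the published methods a Smart-seq2 protocol. Values were in TPM, the length-scaled share of a transcript in its library. As no counts remain in this unit, the sequencing depth behind a value is unknown from the values used here, and counting error could not be given an interval. In such bulk samples, fewer cells of a type and less RNA per cell cannot be told apart.

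Control libraries listed between 8854 and 8953 genes above 0 TPM and MT-treated libraries between 14372 and 14408. Across all genes tested, the Pearson correlation of log2(TPM + 1) was between 0.991 and 0.999 for libraries of the same group and between 0.544 and 0.546 for libraries of different groups. Genes are not independent replicates, and these correlations only describe the libraries. The blastocyst label was checked against marker genes. The trophectoderm keratins KRT8 and KRT18 and the pluripotency factor POU5F1 were present in all 6 libraries, whereas CDX2 and NANOG were listed at 0 in every control library, with 15.03 to 17.2 and 8.23 to 8.93 TPM in the MT-treated libraries. TFAP2A, another trophectoderm marker, differed the other way, with 31.5 to 38.9 TPM in control and 0.46 to 0.55 TPM in MT-treated libraries. The summed level of 4 hypoblast markers was 0.2 to 0.44 TPM in control and 53.5 to 57.5 TPM in MT-treated libraries. With MT, GATA6 had 30.8 to 33.1 TPM and PDGFRA 22.5 to 24.2 TPM, whereas SOX17 did not exceed 0.2 TPM. GATA4 was listed at 0 in all 6 libraries. Of 6 cumulus and granulosa cell markers, FSHR was at 15.03 to 19.2 TPM in all libraries, HAS2, PTX3, FST and INHA were listed at 0 in all, and CYP19A1 did not exceed 0.01 TPM. The 6 oocyte markers summed to 0 in control and to 1.03 to 1.44 TPM in MT-treated libraries, and the 4 leukocyte markers to 0 and to 0.140 to 0.220 TPM. Of the sperm genes, TNP1 had 59.6 to 65.0 TPM in control and 0 in MT-treated libraries, and PRM1 and AKAP4 were listed at 0 in all. The part of these differences in the results on proteasome genes was not tested.

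Proteasome transcripts were abundant in both groups. The median of the 13 core subunits without PSMA8 was between 635 and 660.0 TPM in every library, above 97.1% to 98.3% of the genes detected there, and the median of the 16 cap subunits was between 159.6 and 164 TPM, above 89.1% to 94.4% of detected genes. Together the 48 genes made up 1.25% to 1.26% of the listed TPM in control and 1.24% to 1.25% in MT-treated libraries. All of these core and cap subunits were above 0 in all 6 libraries. The replicates lay close together: over the 39 members with at least 20 TPM in every library, the coefficient of variation had a median of 1.49% without MT and 1.72% with MT, and did not exceed 6.14%. The p-values measure only the spread between these libraries.

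To determine which proteasome genes differed between MT-treated and control blastocysts, 45 members with at least 1 TPM in at least 3 libraries were tested with limma on log2(TPM + 1) within the fit of all 11953 such genes. At an adjusted p-value under 0.05, 16 members were higher with MT, 28 were lower, and PSMA7 was not called. These counts include PSMA8, PSMB9 and PSMB10, which met the minimum only through the group in which they were above 0, so that they had to differ and no test of them is given. The counts must be read against the background, since 95.7% of all genes tested were called, 61.6% as higher and 34.1% as lower, beside 35.6% and 62.2% of the members. Of the 2992 genes with at least 20 TPM in every library, 1034 were higher and 1683 lower, and of the 39 members among them 14 were higher and 24 lower. The values of the groups did not overlap for 43 of the 45 members, and for 96.1% of all genes tested. The share of members called was thus close to that of all genes. The median log2 difference was -0.19 over the members, -0.08 over the 29 core and cap subunits without PSMA8, and 1.12 over all genes tested. With at least 20 TPM in every library, it was -0.12 over the 39 members and -0.20 over the 2992 genes.

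The direction of small differences depended on the scaling of the libraries. When libraries were centred on the median over the 5988 genes that had at least 1 TPM in all libraries, a shift of -0.48 (log2) between the groups was removed. This is the difference between medians, and the median of the differences of these genes was -0.27, so that centring moved the typical gene above 0. With it, 29 members were higher and 16 lower, with 95.8% of all genes tested called, 70.4% as higher and 25.4% as lower. After quantile normalization, which gives each library the same distribution, 20 members were higher and 20 lower, beside 90.9% of all genes tested called, 46.4% as higher and 44.4% as lower. With each library rescaled to the same sum, 17 were higher and 24 lower, beside 62.5% and 33.3%. Under all 4 scalings, 16 members were called higher and 16 lower, PSMA8, PSMB9 and PSMB10 among them, and the other 13 tested members changed their call or direction with the scaling. Of all genes tested, 44% were called higher and 25.4% lower under all 4. The plot of differences for each tested gene shows which members stayed on their side.

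**Figure D1:**
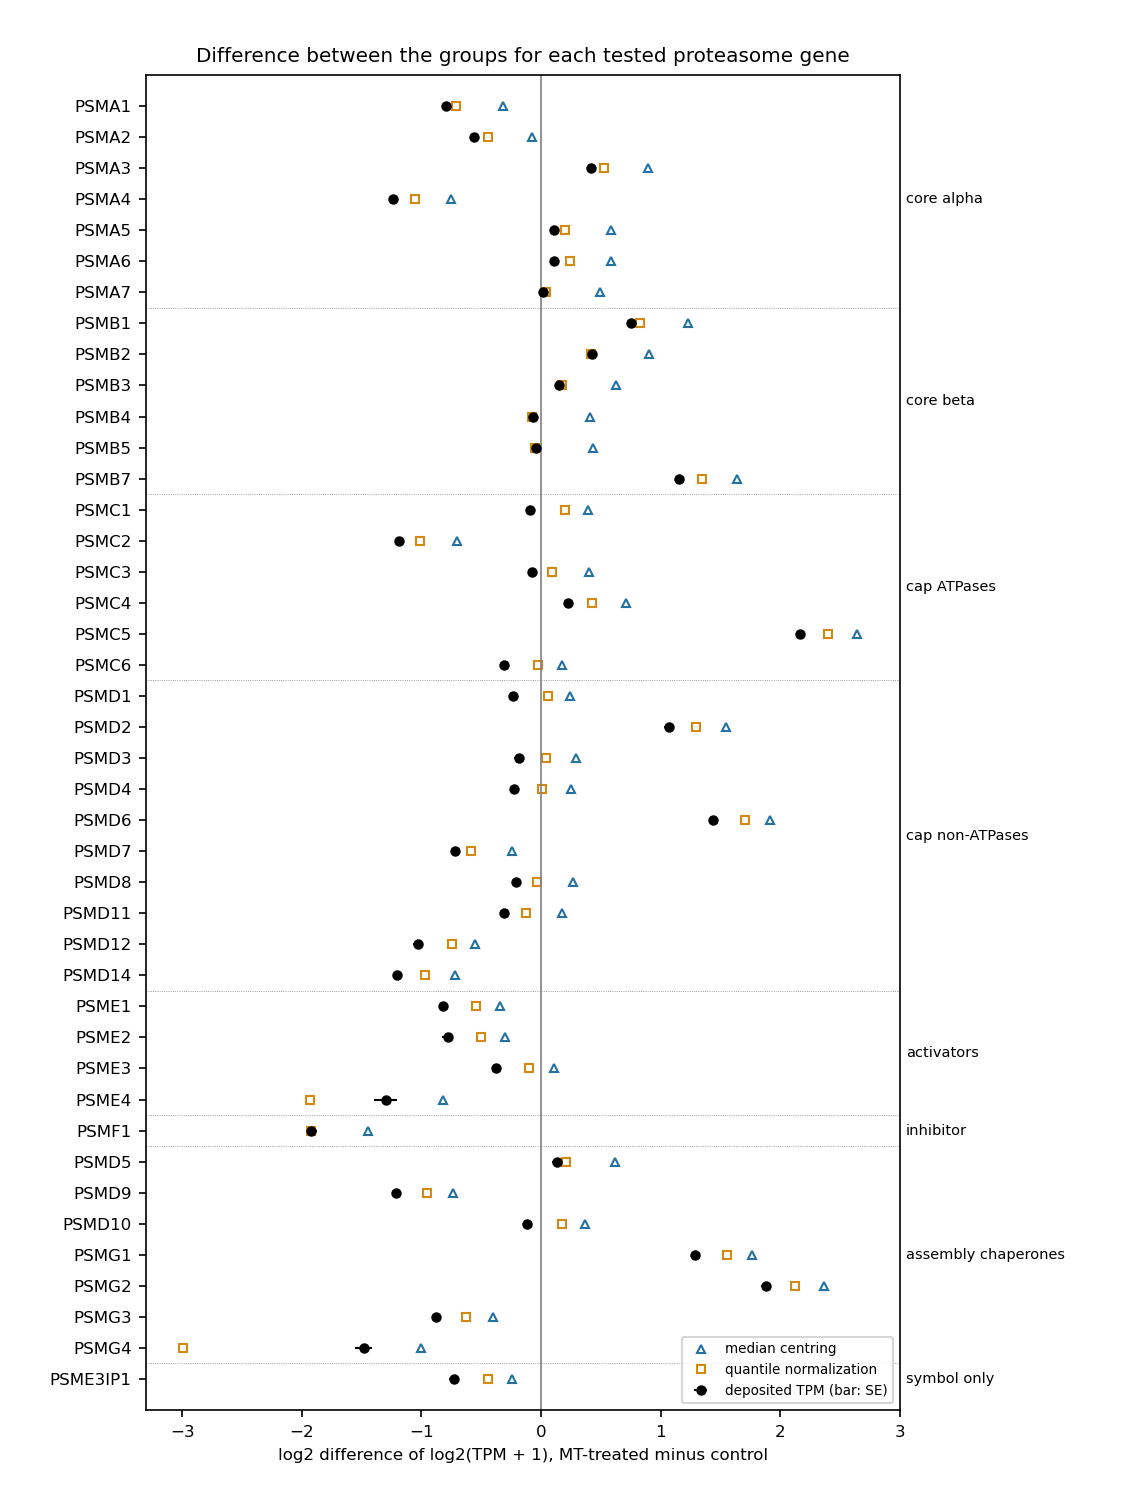
Log2 difference of log2(TPM + 1) between MT-treated and control blastocysts (x axis) for 42 tested proteasome genes (y axis, grouped by part), with deposited TPM (black points, bars are standard errors), median centring (blue triangles) and quantile normalization (orange squares). PSMC5 lies farthest to the right with deposited TPM at 2.16 and PSMF1 farthest to the left at -1.92, and genes near 0, such as PSMB4 and PSMB5, change sides with centring. PSMA8, PSMB9 and PSMB10, listed at 0 in all libraries of a group, are left out.

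In the α ring of the core, PSMA4, PSMA1 and PSMA2 fell and PSMA3, PSMA5 and PSMA6 rose under all 4 scalings. PSMA4 (ENSBTAG00000014440) had 524, 534 and 526 TPM without MT, against 215, 234 and 223 TPM with MT, a log2 fold change of -1.24 (SE 0.033, limma adjusted p = 8.85e-08). It was the member of the ring with the largest fall, to 0.424 times the control mean. PSMA1 (ENSBTAG00000006564) had 718, 709 and 709.6 TPM without MT, against 411, 415 and 402 TPM with MT, a log2 fold change of -0.80 (SE 0.016, limma adjusted p = 2.25e-08). By mean TPM, PSMA1 was the highest α subunit in control libraries, close to PSMA7, whereas in MT-treated libraries PSMA4 was the 1 constitutive α subunit below it. PSMA3 (ENSBTAG00000002808) had 489, 481 and 485 TPM without MT, against 653, 653 and 635 TPM with MT, a log2 fold change of 0.42 (SE 0.016, limma adjusted p = 4.88e-07). The groups did not overlap for any of these. PSMA2 fell from 654 ± 6.51 TPM without MT to 443 ± 2.84 TPM with MT (mean ± SD of 3 libraries), and PSMA5 and PSMA6 rose to 1.08 and 1.08 times the control mean. PSMA7, which shares its place in the ring with PSMA8, was 712 ± 10.6 TPM in control and 720.0 ± 12.2 TPM in MT-treated blastocysts (SD, n = 3 each), and the groups overlapped (log2 difference 0.02, adjusted p = 0.418 by limma). It was called higher after median centring, by 0.50, and after rescaling, by 0.05 (limma adjusted p = 2.14e-07 and 0.0285).

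PSMA8 (ENSBTAG00000017698), the α subunit of the proteasome of spermatocytes, was listed at 0 throughout the control group, against 15.4, 7.36 and 18.7 TPM with MT. MT replicate 2 had the lowest of these values. This amounted to 2.17%, 1.02% and 2.55% of the level of PSMA7 in the same libraries.

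In the β ring, PSMB7, PSMB1, PSMB2 and PSMB3 rose under all 4 scalings, and no constitutive β subunit fell under all 4. PSMB7 (ENSBTAG00000003067), the trypsin-like catalytic subunit, had 216, 215 and 213 TPM without MT, against 483, 477 and 477 TPM with MT, a log2 fold change of 1.15 (SE 0.013, limma adjusted p = 2.07e-09). It was the lowest of the constitutive core subunits in each control library and rose to 2.23 times the control mean. PSMB1 (ENSBTAG00000007685), a non-catalytic subunit, had 389.6, 387 and 379.8 TPM without MT, against 644, 648 and 656 TPM with MT, a log2 fold change of 0.75 (SE 0.015, limma adjusted p = 2.1e-08). PSMB2 rose from 740.0 ± 7.09 TPM without MT to 992 ± 19.2 TPM with MT (mean ± SD of 3 libraries) and PSMB3 from 673 ± 9.26 TPM without MT to 745 ± 13.9 TPM with MT (mean ± SD of 3 libraries). PSMB2 had the highest level of any member in each MT-treated library.

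PSMB5 (ENSBTAG00000012726), the chymotrypsin-like catalytic subunit, had 765, 747 and 771 TPM without MT, against 736, 731 and 749.6 TPM with MT, and the groups overlapped. Its log2 difference of -0.04 had an adjusted p of 0.045 by limma, was 0.44 after median centring, and was not called after rescaling (limma adjusted p = 0.745), without the filter (0.055), without the trend (0.152) or when control replicate 1, control replicate 3, MT replicate 1 or MT replicate 2 was left out (adjusted p between 0.115 and 0.133 by limma). PSMB4 (ENSBTAG00000021288) had 828, 791 and 827 TPM without MT, against 786, 768 and 782 TPM with MT. Its log2 difference of -0.07 (adjusted p = 0.0245 by limma) was 0.41 after centring, and was not called after rescaling (limma adjusted p = 0.227), without the trend (0.0699) or without control replicate 1, control replicate 3, MT replicate 2 or MT replicate 3 (adjusted p between 0.0592 and 0.084 by limma). The catalytic subunits PSMB5 and PSMB7 thus stood at 0.971 and 2.23 times their control means.

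The composition of the core differed more than its summed level with deposited TPM. The 14 core genes summed to 7698, 7612 and 7654 TPM without MT, against 7876, 7864 and 7921 TPM with MT, a difference of 3.04% between the means, and a log2 ratio of 0.04 that was 0.52 after median centring. The α genes summed to 4074, 4068 and 4053 TPM without MT, against 3499, 3532 and 3483 TPM with MT, and the β genes to 3624, 3543 and 3601 TPM without MT, against 4378, 4331 and 4437 TPM with MT. The mean level per β subunit was 1.02 to 1.04 times that per α subunit in control and 1.43 to 1.49 times in MT-treated libraries, without PSMA8. This ratio and the shares below are taken within a library from deposited TPM. Rescaling a library leaves them as they are, whereas quantile normalization can move them, and with PSMB6 left out they describe 13 of the constitutive core subunits. An equal share of the summed core TPM would be 7.69% for each of 13 subunits. PSMA4 held 6.9 ± 0.106% in control and 2.84 ± 0.128% in MT-treated blastocysts (SD, n = 3 each), and PSMB7 held 2.8 ± 0.0183% in control and 6.08 ± 0.0575% in MT-treated blastocysts (SD, n = 3 each). PSMA1 held 9.31 ± 0.0324% in control and 5.2 ± 0.105% in MT-treated blastocysts (SD, n = 3 each), and PSMB1 held 5.04 ± 0.0646% in control and 8.24 ± 0.056% in MT-treated blastocysts (SD, n = 3 each). The ratio of PSMA4 to PSMB7 was 2.46 ± 0.0307 without MT and 0.467 ± 0.0237 with MT (SD, n = 3 each). Within the α ring without PSMA8, the highest level was 1.84 to 1.89 times the lowest in control and 3.08 to 3.30 times in MT-treated libraries. Within the β ring it was 3.68 to 3.88 times in control and 2.04 to 2.12 times in MT-treated libraries, so the α genes were less even and the β genes more even in the MT-treated group.

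**Figure D2:**
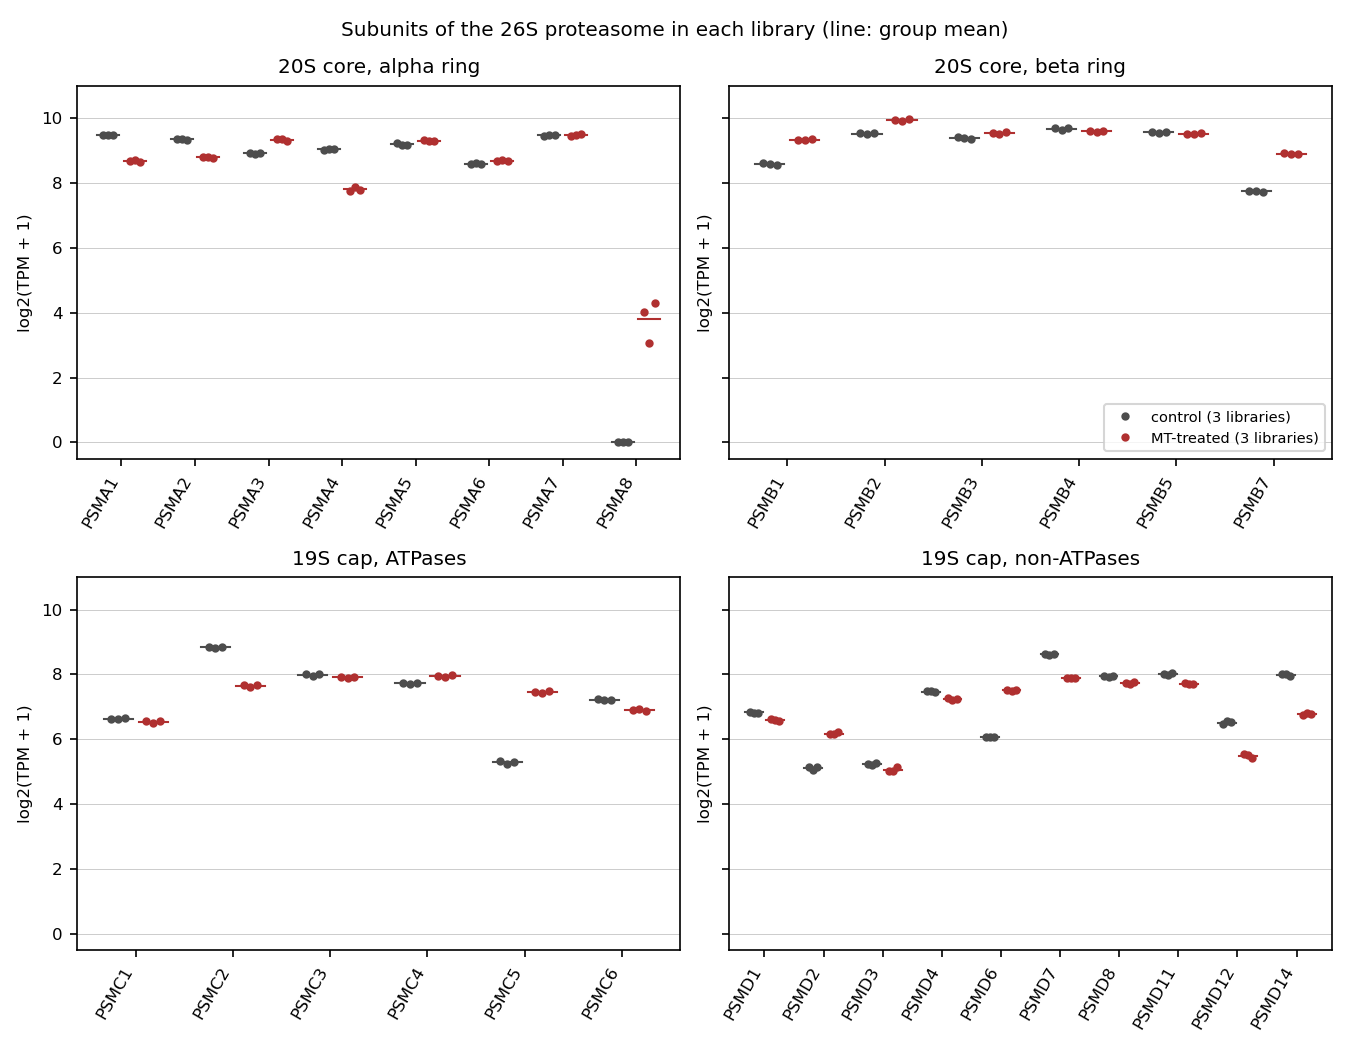
Level of each subunit of the 20S core and 19S cap as log2(TPM + 1) (y axis) in the 3 control libraries (grey points) and the 3 MT-treated libraries (red points), with a line at the group mean. Replicates lie close together, PSMA4 and PSMA1 are lower and PSMB1 and PSMB7 higher in MT-treated libraries, and the control libraries put PSMC2 highest and PSMC5 lowest among the ATPases.

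The 6 ATPases of the cap form a hexameric ring with 1 copy of each. PSMC5 and PSMC4 rose and PSMC2 fell under all 4 scalings. PSMC5 (ENSBTAG00000021061) had 39.1, 36.7 and 38.7 TPM without MT, against 175, 171 and 178 TPM with MT, a log2 fold change of 2.16 (SE 0.032, limma adjusted p = 5.78e-09) and a mean TPM 4.57 times that of control. This was the largest rise of a core or cap subunit present in both groups. PSMC2 (ENSBTAG00000046712) had 461, 454 and 456 TPM without MT, against 202, 197 and 202 TPM with MT, a log2 fold change of -1.19 (SE 0.016, limma adjusted p = 4.59e-09). The ratio of PSMC2 to PSMC5 was 12.0 ± 0.334 without MT and 1.15 ± 0.013 with MT (SD, n = 3 each). PSMC4 (ENSBTAG00000009414) had 211, 209.9 and 214 TPM without MT, against 249, 243 and 253 TPM with MT, a log2 fold change of 0.23 (SE 0.02, limma adjusted p = 4.63e-05). PSMC6 (ENSBTAG00000015732) had 149, 147 and 146 TPM without MT, against 119, 122 and 117 TPM with MT, a log2 fold change of -0.31 (SE 0.022, limma adjusted p = 1.44e-05), but a log2 difference of 0.17 after median centring, and was not called after quantile normalization. PSMC1 and PSMC3 were called lower with log2 differences of -0.09 and -0.08, which were 0.39 and 0.40 after centring. Both were also called higher after quantile normalization, by 0.20 and 0.09, and were not called after rescaling (limma adjusted p = 0.0735 and 0.103).

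The levels of the ATPases were closer to each other in MT-treated blastocysts. The highest was 11.8 to 12.4 times the lowest in the control libraries, PSMC2 against PSMC5, and 2.68 to 2.69 times in the MT-treated libraries, PSMC4 against PSMC1. The SD of log2(TPM + 1) over the 6 genes was 1.22 to 1.24 in control and 0.560 to 0.575 in MT-treated libraries. An equal share would be 16.7%. PSMC2 held 37.9 ± 0.24% in control and 18.7 ± 0.0536% in MT-treated blastocysts (SD, n = 3 each) of the summed ATPase TPM, and PSMC5 held 3.17 ± 0.076% in control and 16.3 ± 0.166% in MT-treated blastocysts (SD, n = 3 each). The sums themselves were 1213, 1192 and 1212 TPM without MT, against 1080.1, 1057 and 1083 TPM with MT.

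**Figure D3:**
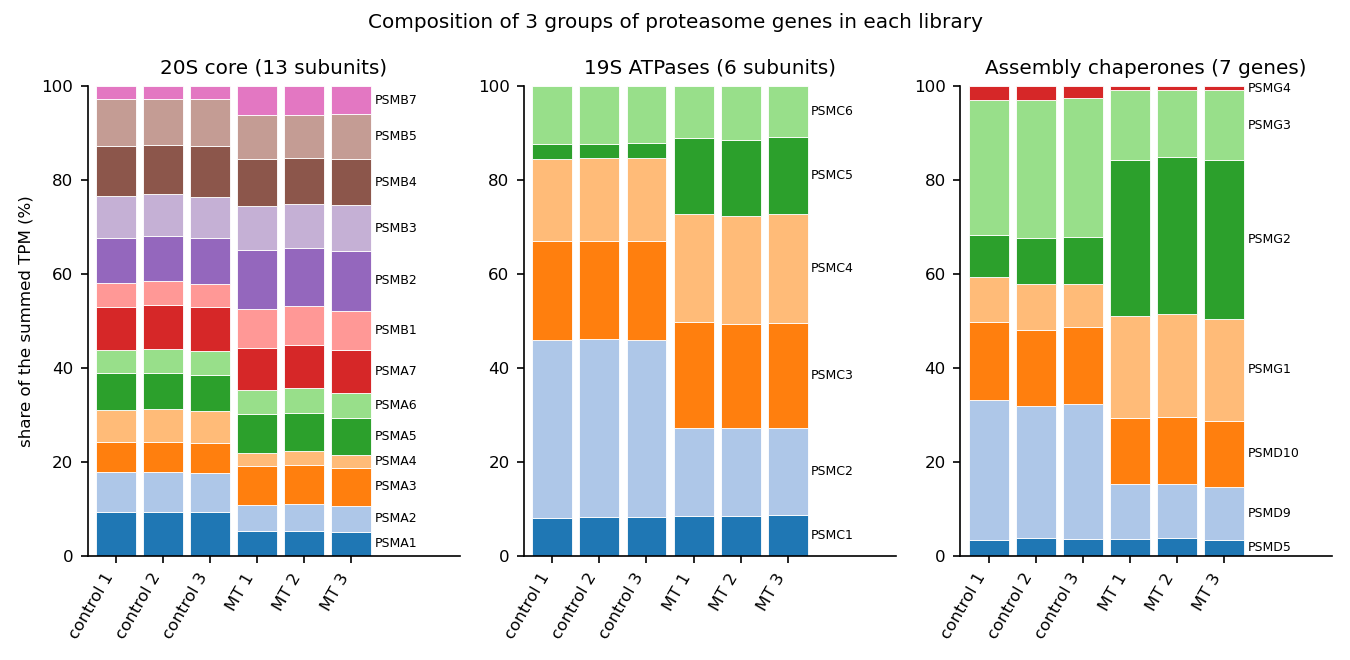
Share of each gene in the summed TPM (y axis, %) of the 20S core, the 19S ATPases and the assembly chaperones in each of the 6 libraries (x axis), with segments named at the right. Bars of the same group look alike, PSMC2 shrinks from 37.9% to 18.7% and PSMC5 grows from 3.17% to 16.3% of the ATPases, and PSMG1 with PSMG2 make up the larger part of the chaperone sum in MT-treated libraries.

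Among the 10 other cap subunits, PSMD6 and PSMD2 rose and PSMD14, PSMD12 and PSMD7 fell under all 4 scalings. PSMD6 (ENSBTAG00000015112), a subunit of the lid, had 66.8, 66.4 and 65.7 TPM without MT, against 181, 179 and 183 TPM with MT, a log2 fold change of 1.44 (SE 0.018, limma adjusted p = 2.98e-09). PSMD2 (ENSBTAG00000005660), a scaffold of the base that binds ubiquitin and its shuttle proteins, had 34.5, 31.9 and 34.1 TPM without MT, against 70.1, 70.5 and 73.1 TPM with MT, a log2 fold change of 1.07 (SE 0.038, limma adjusted p = 3.61e-07). Both were higher in MT-treated blastocysts, at 2.73 and 2.13 times the control mean. PSMD14 (ENSBTAG00000021691), the metalloprotease that cuts ubiquitin from the substrate, had 256, 256 and 245 TPM without MT, against 107, 111 and 109.5 TPM with MT, a log2 fold change of -1.20 (SE 0.026, limma adjusted p = 3.31e-08). PSMD7, the partner of PSMD14 in a dimer, fell from 391.9 ± 5.28 TPM without MT to 237 ± 1.73 TPM with MT (mean ± SD of 3 libraries), a log2 fold change of -0.72 (SE 0.015, limma adjusted p = 3.07e-08). It remained the most abundant of the 10 in every library. PSMD12 (ENSBTAG00000002423), another subunit of the lid, had 87.2, 93.5 and 91.0 TPM without MT, against 45.6, 44.5 and 41.6 TPM with MT, a log2 fold change of -1.03 (SE 0.044, limma adjusted p = 9.32e-07).

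PSMD1, PSMD3, PSMD4, PSMD8 and PSMD11 were called lower with log2 differences between -0.31 and -0.19, and higher after median centring with differences between 0.17 and 0.29. PSMD4, a ubiquitin receptor, was 177 ± 2.13 TPM in control and 151 ± 2.55 TPM in MT-treated blastocysts, and PSMD3 was 36.9 ± 0.646 and 32.3 ± 1.58 TPM (SD, n = 3 each). The ratio of PSMD14 to PSMD6 was 3.81 ± 0.0647 without MT and 0.603 ± 0.0167 with MT (SD, n = 3 each). The whole cap summed to 2888, 2844 and 2876 TPM without MT, against 2429, 2386 and 2428 TPM with MT. The difference between these means was -15.9%, a log2 ratio of -0.25 that was 0.23 after median centring. Per gene, the cap had 0.304 to 0.305 times the mean level of the core in control and 0.247 to 0.251 times in MT-treated libraries with deposited TPM.

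The immunoproteasome is a form of the core in which PSMB8, PSMB9 and PSMB10 replace PSMB5, PSMB6 and PSMB7, and it is induced by interferon and is abundant in immune cells. PSMB9 and PSMB10 differed in opposite directions. PSMB9 (ENSBTAG00000008954) was listed at 0 throughout the control group, against 46.5, 43.2 and 47.0 TPM with MT. PSMB10 (ENSBTAG00000018040) had 9.99, 9.6 and 9.57 TPM without MT and was listed at 0 throughout the MT-treated group. PSMB8 (ENSBTAG00000003039) was listed at 0 in all 6 libraries. No library therefore listed more than 1 of the 3 above 0. PSMB9 was 5.91% to 6.32% of PSMB5 in MT-treated libraries, and PSMB10 was 4.47% to 4.63% of PSMB7 in control libraries. Of the 4 leukocyte markers, CD14, CD68 and PTPRC were listed at 0 in all libraries, and CD3E was listed at 0 in control and had 0.14, 0.15 and 0.22 TPM with MT. In the RefSeq gene table (ARS-UCD2.0), PSMB8 and PSMB9 are separated by 1 protein-coding gene, TAP1.

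A gene listed at 0 can be absent or can have escaped capture or counting, and which of these applies was not tested. Among all genes tested, 33.8% were listed at 0 in every control library, beside 2 of the 45 tested members, and 3.01% in every MT-treated library, beside 1 member. Of all 4860 genes with an MT-treated mean of at least 20 TPM, 18% were listed at 0 in every control library, and PSMB9 was the 1 such gene among 41 members at that level. Of 4507 genes with a control mean of at least 20 TPM, 4.35% were listed at 0 in every MT-treated library, and 0 of 41 members. Of the 7033 genes with an MT-treated mean from 5 to 50 TPM, the range of PSMB9 and PSMA8, 40.7% were listed at 0 in every control library, beside 2 of 9 members. Of the 3186 genes with a control mean in that range, which holds PSMB10, 6.31% were listed at 0 in every MT-treated library, beside 1 of 7 members. PSMB11 (ENSBTAG00000067513), the β subunit of the proteasome of the thymus, had 0.13, 0.16 and 0.15 TPM without MT, against 0.31, 0.34 and 0.32 TPM with MT, under the level required for testing. Its gene overlaps that of PSMB5 in the RefSeq table, and how reads of the shared stretch were assigned was not tested.

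**Figure D4:**
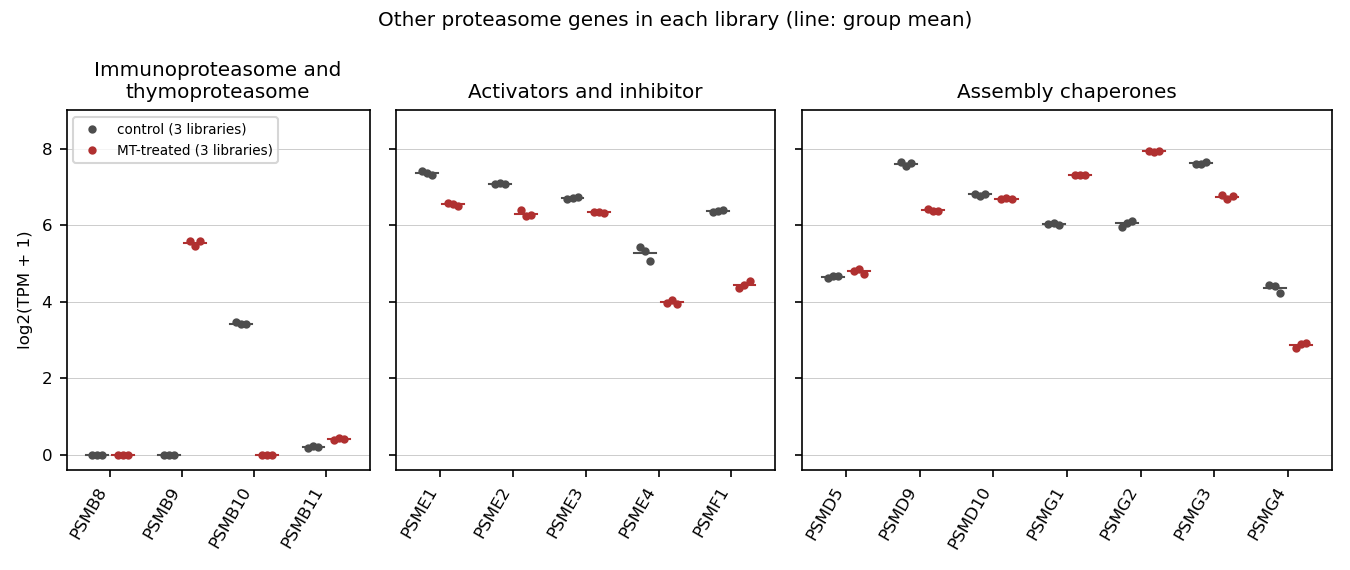
Level as log2(TPM + 1) (y axis) of the immunoproteasome and thymoproteasome subunits, of the activators and the inhibitor PSMF1, and of the assembly chaperones in the 3 control libraries (grey points) and the 3 MT-treated libraries (red points), with a line at the group mean. PSMB9 and PSMB10 lie at 0 in opposite groups, the activators and PSMF1 are lower in MT-treated libraries with deposited TPM, and among the chaperones PSMG1 and PSMG2 are higher while PSMG3 and PSMG4 are lower.

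The activators PSME1, PSME2 and PSME4 fell under all 4 scalings. PSME1 (ENSBTAG00000021395) and PSME2 (ENSBTAG00000005814) encode the subunits of the same ring, PA28αβ, which caps the core in place of the 19S cap and is induced by interferon. PSME1 had 169.5, 162 and 158 TPM without MT, against 94.0, 93.1 and 89.0 TPM with MT, a log2 fold change of -0.82 (SE 0.035, limma adjusted p = 9.13e-07). PSME2 had 134, 136 and 134 TPM without MT, against 83.3, 74.2 and 76.0 TPM with MT, a log2 fold change of -0.78 (SE 0.045, limma adjusted p = 4.47e-06). They fell to 0.564 and 0.58 times the control mean, and the ratio of PSME1 to PSME2 was 1.22 ± 0.0454 without MT and 1.18 ± 0.0633 with MT (SD, n = 3 each), ranges that overlapped. In the RefSeq table the pair is separated by 1 protein-coding gene, EMC9.

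PSME3 (ENSBTAG00000019918), the nuclear activator PA28γ, had 101, 103 and 106 TPM without MT, against 80.1, 79.8 and 78.9 TPM with MT, a log2 fold change of -0.37 (SE 0.024, limma adjusted p = 8.06e-06), but was higher by 0.10 (log2) after median centring. PSME3IP1, which binds it, fell from 58.1 ± 0.673 TPM without MT to 34.8 ± 1.95 TPM with MT (mean ± SD of 3 libraries) under all 4 scalings. PSME4 (ENSBTAG00000020262), the nuclear activator PA200, which acts on histones, had 41.9, 39.2 and 32.5 TPM without MT, against 14.5, 15.4 and 14.3 TPM with MT, a log2 fold change of -1.30 (SE 0.095, limma adjusted p = 1.69e-05). The lowest of its control values was over the highest MT-treated value. The 4 activators summed to 446, 440.1 and 431 TPM without MT, against 272, 263 and 258 TPM with MT, and their mean level per gene was 0.183 to 0.188 times that of the core subunits in control and 0.106 to 0.112 times in MT-treated libraries.

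PSMF1 (ENSBTAG00000018417), also called PI31, blocks the isolated core in vitro. It had 80.5, 80.8 and 82.8 TPM without MT, against 19.5, 20.7 and 22.04 TPM with MT, a log2 fold change of -1.92 (SE 0.046, limma adjusted p = 5.24e-08), and fell under all 4 scalings. The fall to 0.255 times the control mean was the largest among members above 0 in both groups with deposited TPM, whereas after quantile normalization PSMG4 and PSME4 fell further, to log2 differences of -3.00 and -1.93 against -1.92. Its level was 10.5% to 10.8% of that of PSMB5 in control and 2.65% to 2.94% in MT-treated libraries.

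The assembly chaperones of the core work as dimers, PSMG1 with PSMG2 and PSMG3 with PSMG4, which build the α ring together. The 2 dimers differed in opposite directions, under all 4 scalings. PSMG2 (ENSBTAG00000010552) had 61.0, 65.8 and 68.4 TPM without MT, against 242, 239 and 246 TPM with MT, a log2 fold change of 1.88 (SE 0.043, limma adjusted p = 4.31e-08). PSMG1 (ENSBTAG00000013600) had 64.2, 64.9 and 63.2 TPM without MT, against 158, 157 and 158 TPM with MT, a log2 fold change of 1.28 (SE 0.018, limma adjusted p = 4.8e-09). Both rose, to 3.73 and 2.46 times the control mean. PSMG4 (ENSBTAG00000031249) had 20.4, 20.1 and 17.7 TPM without MT, against 5.86, 6.46 and 6.57 TPM with MT, a log2 fold change of -1.48 (SE 0.068, limma adjusted p = 1.43e-06). PSMG3 (ENSBTAG00000000050) fell from 196 ± 4.5 TPM without MT to 106 ± 4.03 TPM with MT (mean ± SD of 3 libraries), a log2 fold change of -0.88 (SE 0.034, limma adjusted p = 5.55e-07). The balance between partners also differed between the groups: the ratio of PSMG1 to PSMG2 was 0.988 ± 0.0641 without MT and 0.65 ± 0.00626 with MT (SD, n = 3 each), and that of PSMG3 to PSMG4 was 10.1 ± 1.05 without MT and 16.9 ± 1.46 with MT (SD, n = 3 each).

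The chaperones of the ATPase ring, PSMD5, PSMD9 and PSMD10, leave the finished cap. PSMD9 (ENSBTAG00000004179) had 199.7, 186 and 196 TPM without MT, against 85.3, 81.8 and 82.1 TPM with MT, a log2 fold change of -1.21 (SE 0.033, limma adjusted p = 9.16e-08), and fell under all 4 scalings. PSMD5 had 24.1 ± 0.631 and 26.6 ± 1.23 TPM (SD, n = 3 each) and rose under all 4, by a log2 difference of 0.14 with deposited TPM. PSMD10 had a log2 difference of -0.12, which was 0.36 after centring. The 7 chaperones summed to 674, 664 and 682 TPM without MT, against 727, 716 and 728 TPM with MT. With deposited TPM, this sum differed by 7.5% between the means while single genes differed up to 3.73 times. The sums of core and cap moved after median centring, and the chaperone sum was not taken under it. PSMG1 and PSMG2 held 9.53% and 9.66% of that sum in control and 21.8% and 33.5% in MT-treated blastocysts (means, n = 3 each).

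PSMC3IP, 1 of the 2 genes taken by symbol alone, had 0.04, 0.11 and 0.04 TPM without MT, against 0.65, 1.17 and 1.34 TPM with MT, and did not reach the level required for testing.

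Genes that work with the proteasome under other symbols were examined as a list of 33 genes from general knowledge, of which 32 were in the table and all 32 were tested. With deposited TPM, 16 were higher, 15 lower and VCP was not called, beside 95.7% of all genes tested called, 61.6% as higher and 34.1% as lower. Under all 4 scalings 14 were higher and 11 lower, beside 44% and 25.4% of all genes tested. Both pairs of counts include ECPAS, PAAF1, UBE3C, UBQLN2, ZFAND2A and ZFAND2B among the higher and NFE2L1 among the lower, which met the minimum of 1 TPM only through the group where they were high, so that they had to differ and no test of them is given. Of the subunits and assembly factors, POMP (ENSBTAG00000014024), which guides the β ring and is the first substrate of the finished core, had 708, 715 and 721 TPM without MT, against 409, 395 and 399 TPM with MT, a log2 fold change of -0.83 (SE 0.017, limma adjusted p = 2.63e-08). SEM1 (ENSBTAG00000052508), the smallest cap subunit, had 1019, 1022 and 991 TPM without MT, against 685, 641 and 647 TPM with MT, a log2 fold change of -0.62 (SE 0.029, limma adjusted p = 1.49e-06). ADRM1 (ENSBTAG00000003058), a ubiquitin receptor of the cap, had 242, 239 and 238 TPM without MT, against 91.2, 84.7 and 95.7 TPM with MT, a log2 fold change of -1.40 (SE 0.045, limma adjusted p = 2.26e-07). All of these fell under all 4 scalings. PAAF1, a chaperone of the ATPase ring, had 0.06, 0.06 and 0.13 TPM without MT, against 15.8, 15.6 and 15.6 TPM with MT, and ECPAS, an adaptor that ties core and cap, was listed at 0 throughout the control group, against 11.9, 12.0 and 11.1 TPM with MT.

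The 2 largest rises of the list on the log2(TPM + 1) scale were in UBQLN2, which carries ubiquitinated proteins to the proteasome, and ZFAND2A, a proteasome-associated protein induced by arsenite. Neither was above 0 in a control library. With MT, UBQLN2 had 27.6, 28.0 and 33.5 TPM and ZFAND2A had 25.96, 22.9 and 24.6 TPM. The 2 largest falls on the log2(TPM + 1) scale were in AKIRIN2, which brings proteasomes into the nucleus, and FBXO7, an F-box protein that binds PSMF1. AKIRIN2 (ENSBTAG00000003764) had 45.7, 44.3 and 45.9 TPM without MT, against 7.47, 7.87 and 8.56 TPM with MT, a log2 fold change of -2.37 (SE 0.05, limma adjusted p = 2.95e-08). FBXO7 (ENSBTAG00000020634) had 12.9, 12.3 and 11.3 TPM without MT, against 1.54, 1.79 and 1.74 TPM with MT, a log2 fold change of -2.29 (SE 0.063, limma adjusted p = 9.94e-08). By the ratio of mean TPM the order was another, with FBXO7 at 0.138, UBQLN4 at 0.15, NFE2L1 at 0.157 and AKIRIN2 at 0.176 times the control mean. NFE2L1 (ENSBTAG00000013653), the transcription factor that raises proteasome genes when the proteasome is inhibited, had 5.12, 5.17 and 5.27 TPM without MT, against 0.84, 0.73 and 0.87 TPM with MT.

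Of the deubiquitinases of the cap, USP14 fell from 37.4 ± 0.452 TPM without MT to 13.5 ± 0.375 TPM with MT (mean ± SD of 3 libraries) and UCHL5 rose from 90.6 ± 1.15 TPM without MT to 108 ± 1.33 TPM with MT (mean ± SD of 3 libraries), both under all 4 scalings. UBB and RPS27A, which encode ubiquitin, had log2 differences of -0.36 and -0.13 (adjusted p = 9.79e-07 and 0.000303 by limma), which were 0.12 and 0.34 after median centring. UBB stood at 4399 ± 32.7 TPM in control and 3425 ± 67.5 TPM in MT-treated blastocysts (SD, n = 3 each).

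For comparison, the same values were taken for cytosolic ribosomal proteins and for the CCT chaperonin, other complexes that every cell makes. With deposited TPM, the log2 difference was under 1 in size for 94.6% of 74 tested ribosomal protein genes, for 87.5% of 8 CCT genes, for 72.4% of the 29 core and cap subunits and for 78.1% of the 2992 genes with at least 20 TPM in every library. After median centring the shares were 86.5%, 75.0% and 82.8% for the ribosomal protein, CCT and proteasome genes, so that CCT and proteasome genes changed order. The share of the 2992 genes was not taken after centring, so their order with the proteasome genes is known with deposited TPM only. With deposited TPM, the SD of the log2 differences was 0.488 over the ribosomal protein genes, 0.756 over the CCT genes, 0.791 over the core and cap subunits and 0.823 over the genes with at least 20 TPM. The level of a subunit in control and in MT-treated blastocysts, as the mean of log2(TPM + 1), had a Pearson correlation of 0.83 and a Spearman correlation of 0.855 over the 29 core and cap subunits. They were 0.351 and 0.566 over the 13 core subunits and 0.644 and 0.697 over the 16 cap subunits. Over 74 ribosomal protein genes they were 0.937 and 0.908, over the 2992 genes with at least 20 TPM in every library 0.874 and 0.764, and over all genes tested 0.547 and 0.471. These are descriptions across genes that share their libraries, and the difference between the complexes was not tested.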

How the data were processed

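RNA was measured in 6 libraries of bovine blastocysts, 3 control and 3 MT-treated, with groups and replicate numbers taken from the sample labels. The authors used fastp and FastQC 0.11.9 for quality control, aligned reads with STAR 2.7.9a and counted genes with featureCounts (Subread 1.6.3). The paper names the genome ARS-UCD1.3 and the labels ARS-UCD1.2. The deposited values are TPM for every gene, and how the authors turned counts into TPM is not given in the sources used here. TPM keep no depth, and the listed values summed to 936783 to 937698 in control and 912686 to 913707 in MT-treated libraries.

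The test was limma 3.58.1 (lmFit, then eBayes with trend, in R 4.3.3) on log2(TPM + 1) for genes reaching 1 TPM in at least 3 libraries, MT against control, two-sided, and Benjamini-Hochberg adjustment over all 11953 genes tested at 0.05. A fold change on this scale understates the change of low genes, and ratios of levels were taken from mean TPM. An exact permutation test of 3 libraries against 3 cannot go below p = 0.1 and was not used. The alternatives comprised a pseudocount of 0.1, a filter at 5 TPM or none, quantile normalization, median centring, rescaling to the same sum, genes with a symbol only, no trend, a replicate block and each library left out in turn. The fit was tested on simulated data. Tables and figures were made with Python 3.11.15, pandas 2.3.3 and matplotlib 3.10.9.

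Members, lists and tests were chosen with earlier results of these data known. Named with the value of each library were all immunoproteasome, activator and inhibitor genes, members listed at 0 throughout 1 group, the 2 highest and 2 lowest log2 fold changes in each other part, PSMB5 and PSMB7, and, of the associated genes, POMP, NFE2L1, ADRM1, SEM1 and the 2 highest and 2 lowest. Other genes with values, such as PSMC3IP, PAAF1, ECPAS, USP14, UCHL5 and UBB, and the pairs set in ratio were chosen after their values were seen. RefSeq gene order (ARS-UCD2.0) was used for neighbours only, and 48 of 48 members matched by symbol. No sequences were used here, and some genes of the associated list are not reported here.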

Additional observations from a re-analysis of the deposited data

How the results depend on the processing

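Median centring moved the counts of members most, to 29 higher and 16 lower, and turned the log2 difference of PSMB4 to 0.41, of PSMB5 to 0.44, of PSMC6 to 0.17 and of PSME3 to 0.10. The median log2 difference over the tested members was 0.29 after median centring, 0.0088 after quantile normalization and -0.15 after rescaling, and between -0.22 and -0.16 with each library left out in turn. The log2 ratio of the summed core was 0.52 after centring, 0.099 after quantile normalization and 0.081 after rescaling, and that of the cap 0.23, -0.045 and -0.21. Leaving out each library gave between 15 and 16 higher and between 26 and 28 lower members. Pseudocount, filter, the restriction to genes with a symbol and the trend left the counts of members and of associated genes within 1.5 times.

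By the published methods the treatments shared each run, but the labels do not tie a replicate number to a run. Deviations from the group means of same-numbered libraries correlated at -0.012, -0.00068 and 0.059 over 11953 genes, so the libraries were treated as unpaired. With a replicate block, 16 members were higher and 28 lower. TPM keep no depth, which limits what can be said of genes listed at 0.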
